A study of Mus musculus with 12 samples.

Results

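Olaparib, an inhibitor of the DNA repair enzyme PARP, and ADU-S100, a cyclic dinucleotide that activates the innate sensor STING, were given alone or together to mice with a breast tumor, and the question here was whether the effect of both drugs on immune gene expression equalled the sum of their separate effects. For each gene the interaction was computed on the log2 scale as the effect of ADU-S100 in tumors that also received olaparib minus its effect in tumors that did not. A value above 0 places the combination above the sum of the single-drug effects, and a value below 0 places it below that sum. All genes with a normalized count of at least 20 in at least 3 tumors entered, which kept 689 of 750 genes in 12 tumors. At the limit of the filter, the third highest value was 20.8 for Ccl24, which was kept, and 19.975 for Klra6, which was left out.

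The tumors were of a triple negative breast cancer model, K14-Cre;Brca1f/f;Trp53f/f, in which Cre under the keratin 14 promoter deletes Brca1 and Trp53 in epithelium, and grew in the mammary fat pad of immunocompetent female FVB/129P2 mice. All 4 groups carried this genotype, and each held 3 tumors, harvested at day 3. Vehicle mice received diluted DMSO intraperitoneally and a saline injection of 40 μl into the tumor, ADU-S100 mice a single intratumoral dose of 50 μg on the first day, olaparib mice 50 mg/kg intraperitoneally each day, and combination mice both drugs. Each sample was a piece of 1 tumor with its stroma and immune cells, so fewer cells of a type and less RNA per cell cannot be told apart, and the labels give only the tumor number for each replicate. The p-values measure the spread between these tumors.

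STING activation in a cell turns on the kinase TBK1, the transcription factor IRF3 and NF-kB, which leads to type I interferon and inflammatory cytokines. MHC class II molecules present peptides from engulfed material to CD4+ T cells, and are made by dendritic cells, macrophages and B cells and, after interferon gamma, by many epithelial cells. An α and a β chain are held by the invariant chain Cd74 until cathepsin S cuts it, and the H2-DM proteins load the peptide.

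The nCounter panel counts single mRNA molecules with colored probes and no amplification, and the counts that underlay the deposited values could be recovered because the values of a tumor were whole multiples of 1 factor. These totals ranged from 106206 to 1519471 per tumor. The factor, by which a count was multiplied to give the normalized count, was 0.589 in olaparib tumor 1521 and 10.5 in olaparib tumor 1517, both in the same group, and 0.81 to 0.824 in the combination. A gene with the same number of counts in every tumor would therefore have an interaction of -2.65, or -2.10 after every tumor was scaled to one median. Trp53, which the model deletes in epithelium, had a mean of 662 recovered counts, and where its probe lies is not stated. The 30 lowest genes had a median of 3 to 7 counts in every tumor, so genes near that level are described apart from those with higher counts. No pair of tumors of a group looked like 1 library, since the chi-square of their counts over genes was at least 46.6 per degree of freedom. Tumor 1269 of the vehicle group and tumors 1251 and 1270 of the combination bear numbers that begin with 12, the others 15, and what this marks is not stated.

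Over all genes the interaction leaned below 0. Its median was -0.55, with 476 genes below 0 and 213 above. At an unadjusted p under 0.05, 62 genes lay below additivity (9% of genes tested) and 13 above (1.89%), while after Benjamini-Hochberg adjustment limma passed 0 genes at 0.05 in either direction. On recovered counts edgeR also passed 0 genes at an adjusted p with either normalization, and DESeq2 passed 23 below and 6 above, among them H2-Aa, H2-DMb2 and Cd74 above and C9 and Il22ra1 below. Once the tumors shared one median, which moves all interactions up by about the size of that median, 64 genes lay below (9.29%) and 26 above (3.77%), again with 0 genes past the adjusted threshold. Of the genes below, 49 were shared by both fits, 79% of the 62 and 76.6% of the 64. Of those above, 11 were shared, 84.6% of the 13 and 42.3% of the 26. Genes named below as above or below additivity are those at an unadjusted p under 0.05, of which none passed the adjusted threshold in limma with all 12 tumors.

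The group means behind the contrast had a simple form. For all 62 genes below, both single drugs stood above vehicle and the combination stood under both single drugs, and for 39 of them also under vehicle. Their median effects against vehicle were 1.32 for ADU-S100, 1.26 for olaparib and -0.11 for the combination. For 12 of the 13 genes above, both single drugs stood under vehicle, and for the other, Cd74, olaparib stood slightly over it. The combination stood over both single drugs for all 13 and over vehicle as well for 12, and their median effects were -0.70 for ADU-S100, -0.72 for olaparib and 0.98 for the combination. These counts describe signs of means and were not tested. Tumors separated without overlap, with the combination over olaparib and ADU-S100 under vehicle, for 2 genes as deposited (0.29%) and 6 after scaling (0.871%). The reverse separation was seen for 5 genes (0.726%) and 12 (1.74%).

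**Figure D1:**
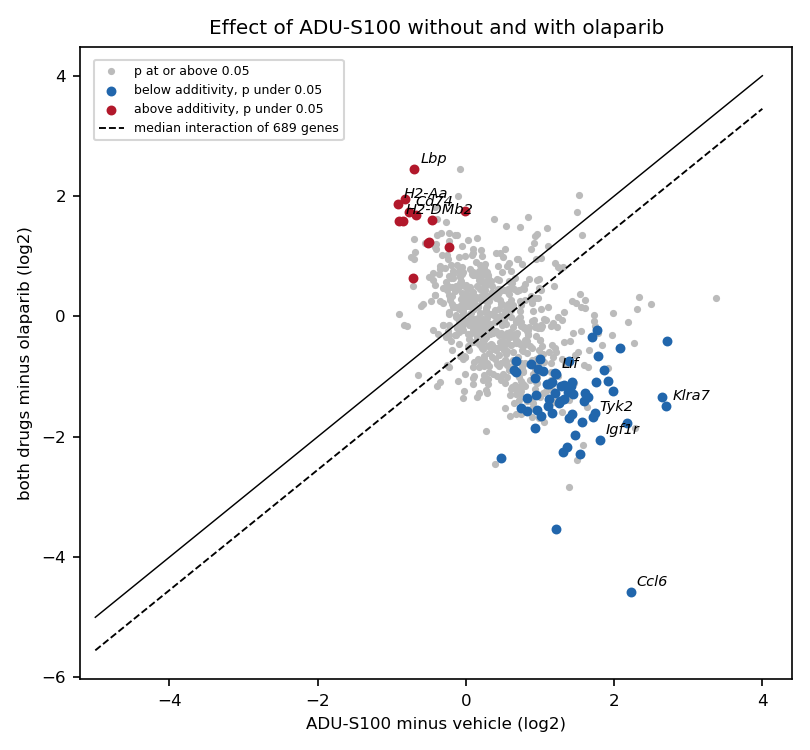
Each point is 1 of 689 genes, with the log2 effect of ADU-S100 without olaparib on the x axis and with olaparib on the y axis. The solid line marks additivity and the dashed line the median interaction of -0.55; the 62 blue genes lie right of and below both lines and the 13 red genes left of and above them.

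MHC class II was, of 32 gene lists, the one with the highest median interaction, 1.54 against -0.55 over all genes. Of its 11 genes kept, 9 lay above 0, 5 of them (H2-Aa, Cd74, H2-DMb2, H2-DMa and Ctss) at an unadjusted p under 0.05, and 0 lay below additivity, where 1.89% of all genes tested lay above. The 5 became 2 with the number series as a block and 3 without tumor 1529, 1512, 1513 or 1270, taken one at a time. They became 6 without ADU-S100 tumor 1506 and 6 with the log2 factor as a covariate. After scaling, 10 were above 0, 6 of them at that threshold, with H2-Ab1 added, and the median was 2.09. The promoters of the classical class II genes carry a conserved Y box, bound by NF-Y, next to the elements through which the coactivator Ciita acts. Of the 7 class II genes with a promoter sequence, 2 held the letters CTGATTGG on either strand (28.6%), beside 6.07% of the genes kept and 4.31% of all 27025 RefSeq promoters. Of the genes above additivity with a promoter sequence, 1 of 11 held them as deposited (9.09%) and 1 of 21 after scaling (4.76%). The 2 class II promoters are shown because 1 belongs to a gene above additivity and 1 to a gene that was not. They run from 250 bases before to 50 after the start site (RefSeq, GRCm38.p6), with the Y box in capitals. H2-Aa lies on the minus strand at chr17:34287774-34288073, with the box starting at -51, and H2-Eb1 on the plus strand at chr17:34305617-34305916, with the box at -62.
H2-Aa promoter: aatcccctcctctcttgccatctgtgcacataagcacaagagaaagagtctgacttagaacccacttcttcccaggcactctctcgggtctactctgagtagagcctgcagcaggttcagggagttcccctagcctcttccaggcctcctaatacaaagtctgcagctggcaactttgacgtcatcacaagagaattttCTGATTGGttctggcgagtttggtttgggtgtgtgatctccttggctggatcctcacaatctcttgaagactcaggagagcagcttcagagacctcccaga
H2-Eb1 promoter: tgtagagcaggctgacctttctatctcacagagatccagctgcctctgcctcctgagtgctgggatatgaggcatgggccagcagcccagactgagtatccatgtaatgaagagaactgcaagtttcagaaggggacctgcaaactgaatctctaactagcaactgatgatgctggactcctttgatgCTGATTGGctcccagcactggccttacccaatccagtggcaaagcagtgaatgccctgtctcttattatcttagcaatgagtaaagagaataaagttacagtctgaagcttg

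H2-Aa encodes the α chain of the I-A molecule. Its normalized counts were 4678, 6164 and 3474 with vehicle, 4683, 1770 and 1789 with ADU-S100, 5796, 3385 and 4288 with olaparib, and 15231, 18905 and 14123 with both drugs. Every combination tumor lay over every other tumor, while the single-drug tumors overlapped vehicle. The interaction was 2.78 ± 0.65 (SE; adjusted p = 0.346 in limma) and 3.34 ± 0.72 after scaling (adjusted p = 0.12). The chain it pairs with, H2-Ab1, ran from 2346 to 4447 with vehicle, 1347 to 5096 with ADU-S100, 2451 to 6355 with olaparib and 8758 to 9775 with both. Here too the combination did not overlap the other groups, and its interaction of 1.54 ± 0.76 missed the unadjusted threshold as deposited, while that of 2.09 ± 0.62 after scaling did not. H2-Eb1, the β chain of I-E, was spread widely in the olaparib group, at 4017, 4800 and 822, and stood at 2846, 3990 and 3417 in the combination. Its tumors overlapped across these groups and the interaction was 0.57 (1.13 after scaling).

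Cd74, the invariant chain, was counted most among the class II genes. Its normalized counts were 6695, 9698 and 6254 with vehicle, 8246, 3307 and 3006 with ADU-S100, 15446, 7011 and 5252 with olaparib, and 21484, 49444 and 19764 with both. All 3 combination tumors were higher than any other, and 1 of them, tumor 1270, was far over the other two. The interaction was 2.50 ± 0.80 (3.06 ± 0.79 after scaling). Ctss, the protease cathepsin S, had 3 combination tumors at 4528, 3150 and 3929, of which the lowest was under ADU-S100 tumor 1506 at 3278. Its lowest values, 1019 and 555, were in olaparib tumors 1510 and 1517, and its interaction was 1.76 ± 0.78, or 0.79 with the log2 factor as a covariate.

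Among the peptide loading genes, H2-DMb2, a β chain of H2-DM, had the smallest p of all genes as deposited. Its normalized counts were 106, 126 and 97 with vehicle, 65.5, 37.3 and 79.9 with ADU-S100, 54.6, 83.8 and 78.4 with olaparib, and 190, 261 and 203 with both. All 6 single-drug tumors lay under all vehicle tumors, and all combination tumors lay over them. The interaction was 2.49 ± 0.55 (adjusted p = 0.346 in limma) and 3.03 ± 0.72 after scaling. H2-DMa, the α chain, stood between 191 and 570 in the 9 other tumors and at 695, 1401 and 697 in the combination, with an interaction of 1.73 ± 0.68. H2-DMb1, a close paralog of H2-DMb2, was 144, 143 and 141 in the combination and overlapped both single-drug groups, with an interaction of 0.63. How well the probes of H2-DMb1 and H2-DMb2 tell the paralogs apart is not stated, so the difference between them is uncertain. Ciita, the coactivator of class II transcription, had an interaction of 0.59, H2-Ob, which restrains H2-DM, of -0.94, and the pseudogene H2-Ea-ps of -0.53, and the tumors of these genes overlapped across the groups.

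**Figure D2:**
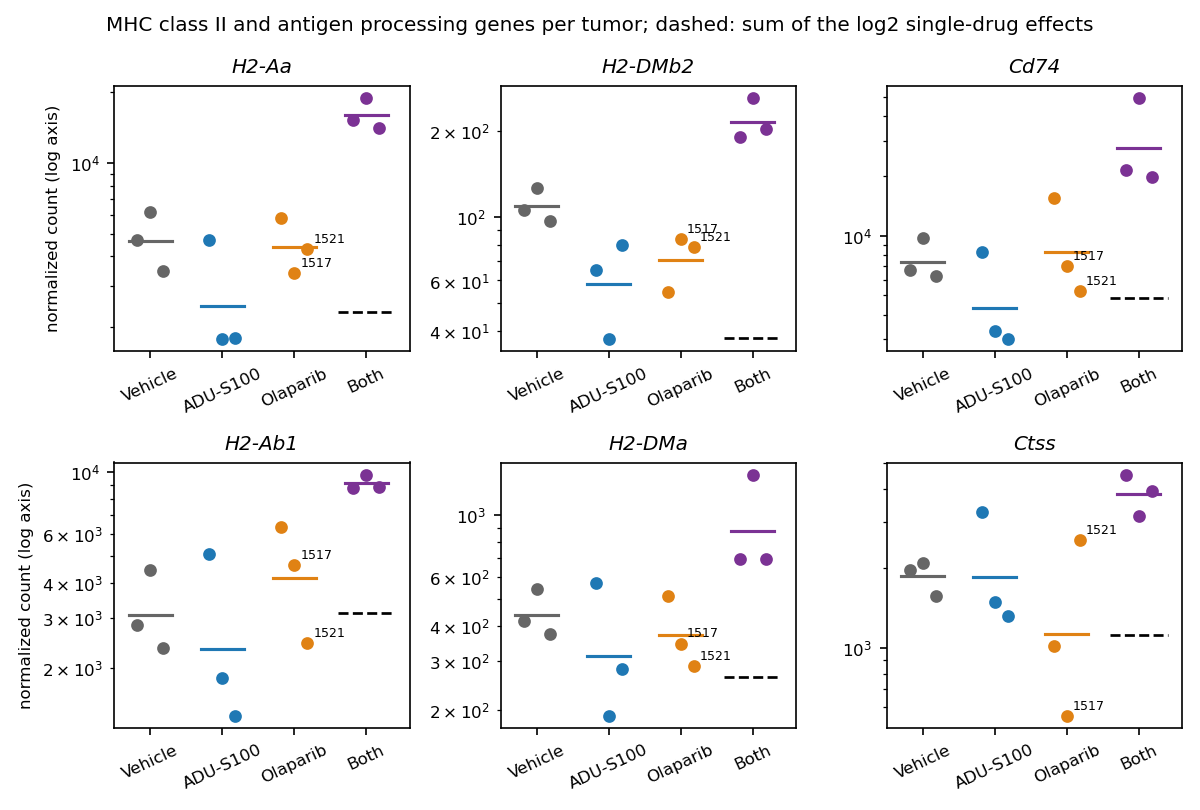
Normalized counts on log axes for 6 class II and processing genes, with 1 point per tumor, the group mean of log2 values as a bar and the sum of the single-drug effects as a dashed line (the 3 tumors of each group are drawn in the order of their numbers, and olaparib tumors 1517 and 1521 are labelled). The combination of H2-Aa, H2-DMb2, Cd74, H2-Ab1 and H2-DMa lies over every other tumor and over the dashed line.

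The other genes above additivity belonged to several lists. Lbp, the lipopolysaccharide binding protein, had the highest interaction, 3.15 ± 0.87 (3.70 ± 1.15 after scaling). Its normalized counts were 9793, 6272 and 5144 with vehicle, 3429, 2450 and 8740 with ADU-S100, 1255, 1645 and 5278 with olaparib, and 12116, 14991 and 9722 with both. The lowest combination tumor lay just under the highest vehicle tumor, and 1 tumor of each single-drug group was within the vehicle range. Tgfb2, a TGF-β ligand, was at 346 in olaparib tumor 1517 and 2830 in 1521, and at 4408, 5576 and 2841 in the combination, with an interaction of 2.77 ± 0.98, or 0.89 with the log2 factor as a covariate. Tcf7, the transcription factor TCF1 of naive and memory T cells, was 44.8, 83.8 and 266 with olaparib and 335, 321 and 321 with both, within the vehicle range of 167 to 585, with an interaction of 2.36 ± 0.88. St6gal1, a sialyltransferase, reached 1577 to 1838 in the combination, which overlapped ADU-S100 tumor 1513 at 1581, and its interaction was 2.06 ± 0.66.

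Tnfsf10, which encodes the death ligand TRAIL, was 855, 1387 and 624 with both drugs, over all other tumors, of which the highest was a vehicle tumor at 570. Its interaction was 2.42 ± 0.97. Mr1, which presents vitamin B metabolites to MAIT cells, was likewise over all others in the combination, at 1342, 1699 and 926, with an interaction of 1.38 ± 0.60. Casp1, the inflammasome protease, and C1qbp, a mitochondrial protein that binds C1q, had interactions of 1.73 and 1.34, and their combination tumors overlapped vehicle. Neither kept an unadjusted p under 0.05 after scaling.

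Of the 5 genes that the study names as leading, H2-Aa and H2-Ab1 are described above. Ltb, lymphotoxin β, stood at 122, 157 and 112 in the combination and between 20 and 94 elsewhere, with an interaction of 1.25 (1.80 after scaling, at an unadjusted p under 0.05 there). Clec7a, the β-glucan receptor dectin-1, stood at 131, 151 and 107 and between 25.2 and 88.3 elsewhere, and Itgal, the integrin α chain of LFA-1, at 178, 196 and 203 and between 54.6 and 168 elsewhere. The interactions of Clec7a and Itgal were 0.96 and 0.79 (1.49 and 1.34 after scaling), with unadjusted p values over 0.05 in both fits. These genes were picked by the study for their level in the combination, which is not independent of the interaction.

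Genes below additivity had fewer counts. By the mean recovered count over the 12 tumors, 43 of the 62 genes below had under 100 counts, against 0 of the 13 above, and after scaling these numbers were 50 of 64 and 7 of 26. Among the 88 genes with under 20 counts the median interaction was -1.90 and 24 lay below additivity, among the 177 genes with 20 to 100 counts it was -0.93 with 19 below, among the 277 with 100 to 1000 counts -0.43 with 16 below, and among the 147 with at least 1000 counts 0.03 with 3 below. The genes above numbered 0, 0, 5 and 8 in the same order. After scaling the medians were -1.36, -0.38, 0.12 and 0.58, so the order by counts remained. The filter was set on normalized counts, so a gene with few counts reached it more readily in tumors with a high factor. The factor was 1.43 to 2.85 with ADU-S100, 0.589 to 10.5 with olaparib and 0.81 to 0.824 with both. Among genes with few counts the filter thus favoured those high in single-drug tumors with a high factor. The factor's own contrast, given above, lies nearest to the genes with the fewest counts, and its part in their interactions was not tested. With the log2 factor as a covariate the medians from the fewest to the most counts were 0.16, 0.65, 0.38 and 0.29, without the order by counts. With this covariate the median interaction over all genes was 0.40, with 5 genes below and 64 above, and 6 of the 11 class II genes were above. This setting spends 1 of 8 residual degrees of freedom on a factor that itself differs between the groups.

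**Figure D3:**
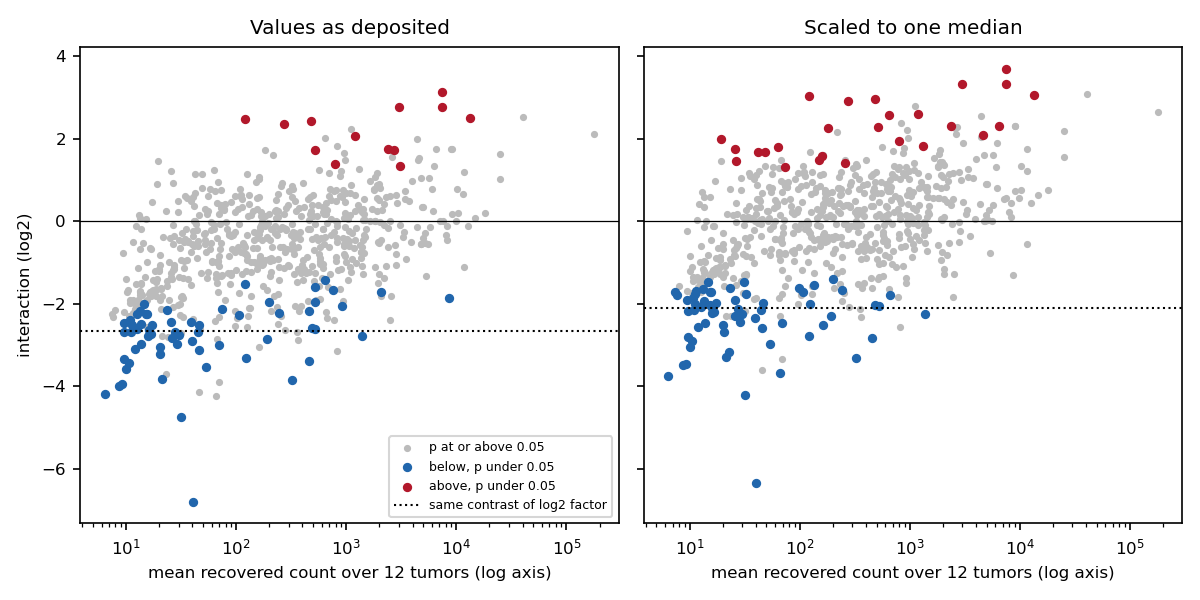
Interaction on the log2 scale against the mean recovered count (log axis) for 689 genes, as deposited (left) and after scaling to one median (right), with genes at an unadjusted p under 0.05 in blue (below) and red (above). The dotted line is the same contrast of the log2 factor, -2.65 and -2.10, near which the genes with the fewest counts gather.

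The 19 genes below additivity with a mean of at least 100 counts were singled out after their values were seen. Lif, a cytokine of the IL-6 family, was 321, 470 and 389 with vehicle, 795, 1466 and 626 with ADU-S100, 908, 597 and 509 with olaparib, and 441, 204 and 414 with both. All single-drug tumors were over all vehicle and combination tumors, and the combination overlapped vehicle. The interaction was -2.17 ± 0.65 (adjusted p = 0.346 in limma), and at -1.62 after scaling it no longer had an unadjusted p under 0.05. Cdkn1a, the cell cycle inhibitor p21, stood at 1099 to 1277 with ADU-S100, 723 to 1771 with olaparib, 586 to 727 with vehicle and 453 to 912 with both, and its interaction was -1.66 ± 0.59 (-1.11 after scaling, which also missed that threshold). Anp32b, a histone chaperone, had the most counts of the genes below, with an interaction of -1.86 ± 0.66 (-1.30 after scaling, likewise).

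For several genes below additivity, olaparib tumor 1521 stood apart from the other olaparib tumors and near vehicle. Tyk2, the kinase of the interferon and IL-12 receptors, was 1575, 1183 and 788 with ADU-S100 and 2057, 1897 and 198 with olaparib, where 198 is tumor 1521, against 256 to 563 with vehicle and 264 to 301 with both. Igf1r, the receptor of IGF1, was 805, 3406 and 254 with olaparib, 448 to 1069 with ADU-S100, 95.5 to 458 with vehicle and 173 to 294 with both. Ikbke, the kinase IKKε related to TBK1, was 1453, 1331 and 315 with olaparib, 534 to 1598 with ADU-S100, 256 to 560.5 with vehicle and 350 to 406 with both. The interactions were -3.39 ± 1.09 for Tyk2, -3.86 ± 1.20 for Igf1r and -2.57 ± 0.89 for Ikbke, and all 3 genes stayed below at an unadjusted p under 0.05 after scaling. With the log2 factor as a covariate the deposited values gave -1.37 for Tyk2, -1.34 for Igf1r and -1.16 for Ikbke, and none of the 3 had that p. Nfatc2, a calcium-dependent factor of T cell activation, had an interaction of -2.26, and Snai1, a repressor of epithelial genes, of -2.84. The remaining genes of this group were Cd99, Cd3eap, Cklf, Il6ra, Socs3, Plaur, Tfeb, Ccl25, C3ar1, Abl1 and Nfkb2, with interactions from -3.32 to -1.42.

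**Figure D4:**
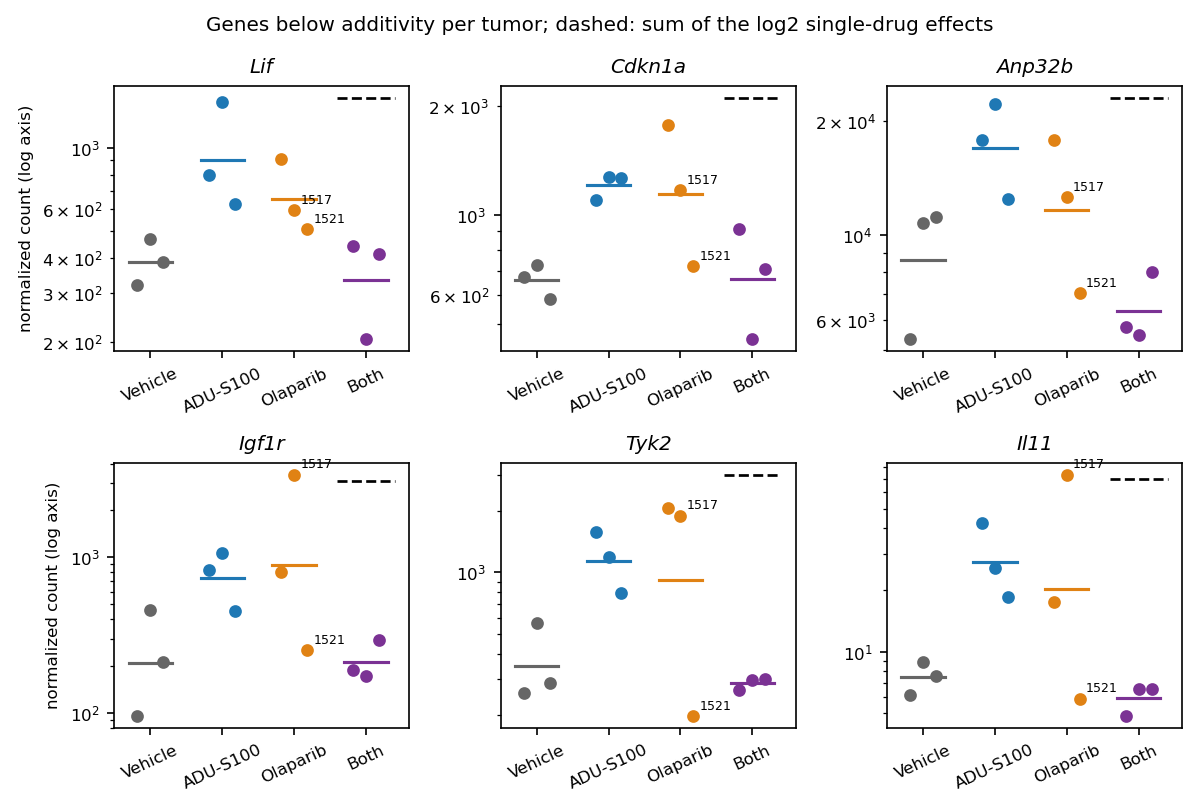
Normalized counts on log axes for 6 genes below additivity, drawn as in the plot of class II genes. The combination lies under the dashed sum of the single-drug effects in every panel, and tumor 1521 lies under the other 2 olaparib tumors; Il11 had a mean of 9.58 recovered counts.

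The IL-6 family list had 4 of its 10 genes below additivity (Lif, Il11, Il6ra and Socs3) where 9% of all genes were, 0 above, and a median of -1.78. Il6ra, the receptor of IL-6, had an interaction of -2.60 ± 1.07 and stood at 297, 530 and 392 with both drugs against 645 to 1632 with ADU-S100. Socs3, the feedback inhibitor that STAT3 turns on, had one of -2.22 ± 0.92, while Stat3 itself was at -0.55, the median of all genes. Il11 ran from 18.5 to 42.7 with ADU-S100 and from 4.86 to 6.6 with both, and its mean of 9.58 recovered counts is close to the background of the assay. It met the filter only through ADU-S100 tumors 1506 and 1512 and olaparib tumor 1517, and left the fit without any of them. Such entry through single-drug tumors favours an interaction below 0. After scaling 3 of the 10 were below (Lif was not), with a median of -1.23. With the log2 factor as a covariate 2 were below and 1 above, and the median was -0.03. The number below was 1 with the number series as a block, 1 of 9 without ADU-S100 tumor 1506 (median -1.19), 1 of 9 without olaparib tumor 1517 (median -0.82) and 2 without vehicle tumor 1269, vehicle tumor 1536, ADU-S100 tumor 1512 or olaparib tumor 1510, while 6 were below without olaparib tumor 1521 (median -2.21).

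Type I and type III interferon genes had few counts. Ifna1, Ifna4, Ifnb1 and Ifnl2, 4 of the 8 genes of the interferon ligand and receptor list, were below additivity, beside 9% of all genes and 24 of the 88 genes with under 20 counts, with interactions from -3.09 to -2.18 and means of 11.9 to 15.5 recovered counts. Ifnb1, the interferon β that STING signaling induces, was 13.6, 10.4 and 9.7 with vehicle, 28.5, 31.4 and 20 with ADU-S100, 46.8, 52.4 and 12.4 with olaparib, and 15.4, 9.07 and 20.5 with both. Its 2 highest values were in olaparib tumors 1510 and 1517, and in 1517 a value of 52.4 corresponds to 5 counts. Before scaling by the factor, Ifnb1 had 5 to 25 counts in every tumor, with the lowest in tumor 1517 and the highest in combination tumor 1539. With a filter at 50 the 5 ligands left the fit and 0 of the 3 genes left were below, and with all 8 genes the number below was 0 with the log2 factor as a covariate (median -0.20), 0 with the number series as a block and 1 after quantile normalization. The receptor genes Ifnar1, Ifnar2 and Ifngr1 had interactions of -0.64, 0.75 and 0.03. Of the 24 interferon-stimulated genes kept, 0 were below and 0 above in either fit, and their median was -0.22 as deposited and 0.33 after scaling.

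Lymphocyte effector genes also lay at low counts. Of the 10 cytotoxic and Th1 genes kept, 3 were below additivity (Gzma, Eomes and Fasl). Over all genes 9% were below, and among those with under 20 counts 24 of 88. All 10 had a negative interaction, none had a mean of 100 counts, and the median of their mean counts was 13.1. With the log2 factor as a covariate 6 of the 10 were positive, 0 were below and the median was 0.42, and with the number series as a block 0 were below. Without olaparib tumor 1510 (8 genes kept) or 1517 (6 kept) 1 was below, and without olaparib tumor 1521 7 of the 10 were. Gzma, granzyme A, was 385, 68.8 and 51.4 with ADU-S100, 64.3, 178 and 17.7 with olaparib, and 23.5, 120 and 30.3 with both, and its interaction was -3.12 ± 1.37. Among the NK receptor genes 3 of 14 were below, Klra7, Klrb1c and Klra4, again beside 9% of all genes, and Klra7 had a mean of 6.42 counts. The median of the mean counts of this list was 24.6. Of genes with under 20 counts 24 of 88 were below, and of those with 20 to 100 counts 19 of 177. The number of NK receptor genes below was 1 without ADU-S100 tumor 1506 or olaparib tumor 1510 or 1517, and 7 of the 14 without olaparib tumor 1521. The median of the list was -1.78, and -0.25 without tumor 1517 (11 genes kept). The NK cell markers Ncr1, Klrb1c and Klrk1, which are also on that list, had a median interaction of -2.27 with 0 of the 3 positive (-1.73 with 1 positive after scaling). They summed to 24.2 to 56.5 with vehicle, 71.3 to 382 with ADU-S100, 54.8 to 335 with olaparib and 113 to 182 with both. Every combination tumor was thus over every vehicle tumor. The median effect of both drugs against vehicle was 0.63 for the NK receptor list and 0.57 for the cytotoxic and Th1 list. Of 33 other interleukin and receptor genes 9 were below, among them Il22ra1 at -3.83, Il5ra at -3.99 and Il19 at -3.22, all 9 under 100 counts. Over all genes 9% were below, and among those with under 20 counts 24 of 88. The 9 became 20 without olaparib tumor 1521, 3 of 28 without olaparib tumor 1517, 4 of 29 without ADU-S100 tumor 1506, 5 without any of tumors 1269, 1536, 1512, 1510, 1270 and 1539, taken one at a time, and 2 with the number series as a block. With the log2 factor as a covariate 0 of these 33 and 1 of the 14 NK receptor genes were below, with medians of 0.14 and 0.25. T cell chemokines and their receptors had a median of 0.19, with Xcr1, the receptor of cross-presenting dendritic cells, below at -2.78 (-0.34 with the covariate). Ccl6 had the lowest interaction of all genes, -6.80 ± 2.25, and its values in tumors 1269, 1251 and 1270 were at the floor of 1 that the table uses. With a pseudocount of 10 its interaction was -4.23.

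The lowest p below additivity belonged to C9, the last component of the complement pore, with a mean of 9.25 counts. It was 4.09, 10.4 and 2.08 with vehicle, 34.2, 29.5 and 14.3 with ADU-S100, 29.2, 62.9 and 7.66 with olaparib, and 5.67, 6.6 and 7.38 with both. These values rest on 6, 7 and 3 recovered counts with vehicle, 12, 15 and 10 with ADU-S100, 15, 6 and 13 with olaparib, and 7, 8 and 9 with both, where the 30 lowest genes had a median of 3 to 7. The vehicle and combination tumors and olaparib tumor 1517 were thus at or near background, and the counts of the combination overlapped those of olaparib. The normalized values of the combination lay under every single-drug tumor, with an interaction of -3.94 ± 1.0, and -1.92 with the log2 factor as a covariate. C9 met the filter only through single-drug tumors, and such entry favours an interaction below 0. Gpr44 is an older symbol of Ptgdr2, a prostaglandin D2 receptor, which the table also lists by its current symbol. Gpr44 had an interaction of -2.98 (-2.46 after scaling) at a mean of 13.8 counts, while the Ptgdr2 entry, at a mean of 11.8 counts, had one of -1.97 (-1.43 after scaling), with an unadjusted p over 0.05 in both fits. H2-Q1, a class Ib gene with close paralogs that share sequence, had an interaction of -3.57 at 10 counts. The remaining genes named are the members with the smallest p of their lists. Below additivity were Hras, a small GTPase, at -2.52, the chemokine Ppbp at -2.99, the protease inhibitor Serpinb2 at -3.54, the dendritic cell gene Lamp3 at -2.68, the T and NK cell surface receptors Cd28 and Cd160 at -2.44 and -2.61, all with means of under 100 counts. Not past the unadjusted threshold were Isg20 at -1.09, Trem1 at -2.07, Ms4a2 at -1.69, Alcam at -1.81, Angpt2 at -0.98 and Cd9 at 1.75. After scaling, Cd5, a surface protein of T cells with a mean of 19.3 counts, was above additivity at 2.0. Lists with 0 genes called in either fit were interferon-stimulated, adhesion, Fc receptor, endothelium and epithelium genes.

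**Figure D5:**
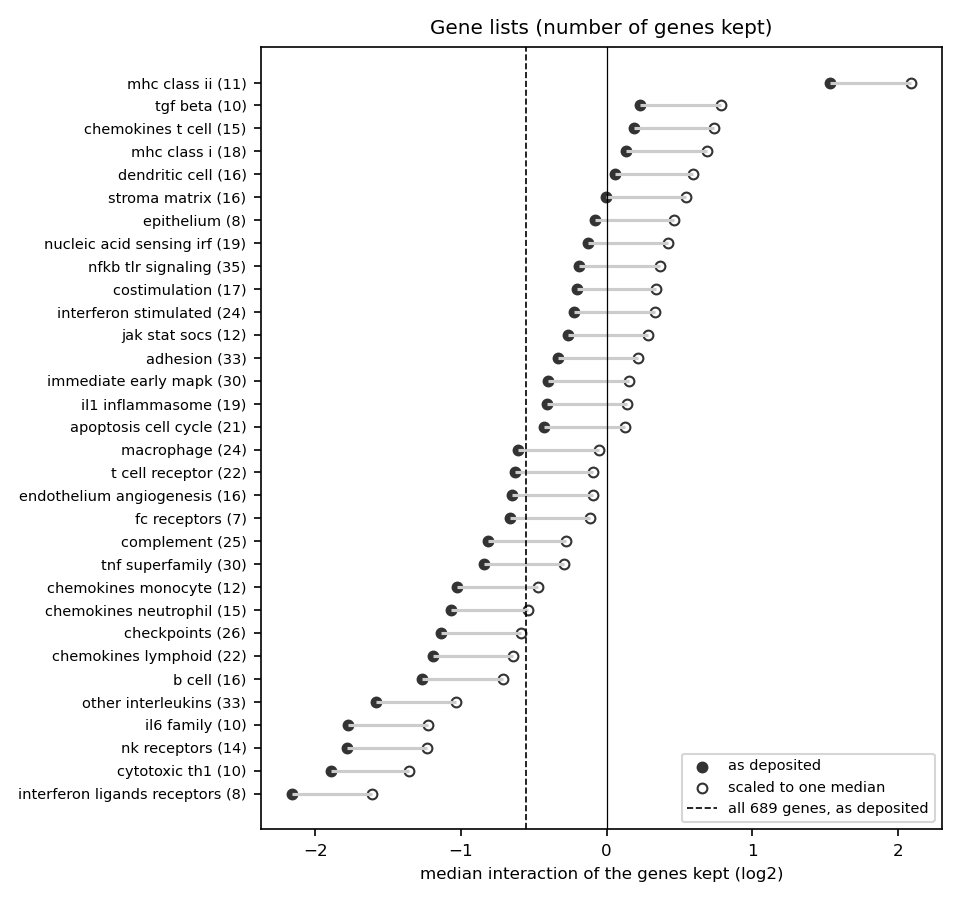
Median interaction of the kept genes of 32 lists, as deposited (filled) and after scaling to one median (open), with the number of genes kept in brackets and the median over all genes as a dashed line. MHC class II is the highest at 1.54 and 2.09, interferon ligands and receptors the lowest at -2.16 and -1.61, and 11 lists change sign between the fits.

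Markers of other cell types were set beside these results. The summed normalized counts of Epcam, Cdh1 and Muc1, which mark epithelium, ranged from 10802 to 22177 over all tumors, and that of Ptprc, Cd53 and Itgb2, which mark leukocytes, from 320 to 1033 with vehicle, 578 to 1994 with ADU-S100, 396 to 975 with olaparib and 816 to 842 with both. Dendritic cell markers summed to 110 to 169 with vehicle, 128 to 242 with ADU-S100, 148 to 398 with olaparib and 197 to 349 with both, with a median interaction of -0.32 and 1 of the 4 above 0 (0.21 with 3 above 0 after scaling). T cell markers summed to 98.4 to 205 with vehicle, 167 to 433 with ADU-S100, 139 to 744 with olaparib and 317 to 513 with both, where every combination tumor was over every vehicle tumor, and their median interaction was -0.46 with 2 of the 6 that passed the filter above 0 (0.08 with 4 above 0 after scaling). Macrophage markers summed to 1033 to 4059 with vehicle, 1823 to 3951 with ADU-S100, 1496 to 3374 with olaparib and 1843 to 2164 with both, with a median of -0.41 and 1 of the 3 above 0 (0.14 with 2 above 0 after scaling). B cell markers summed to 28.6 to 72.8 with vehicle, 52.8 to 111 with ADU-S100, 23 to 293 with olaparib and 56.7 to 101 with both. These groups overlapped, and the 1 of the 5 that passed the filter, Ms4a1, had an interaction of -1.92 (-1.39 after scaling). Fibroblast and matrix markers summed to 18254 to 93806.5 with vehicle, 36611 to 60425 with ADU-S100, 7160 to 30621 with olaparib and 15439.5 to 29886 with both. They had a median of 0.43, with 4 of the 6 above 0 (0.99 with 5 above 0 after scaling). Neutrophil markers summed to 977 to 2164 with vehicle, 1856 to 7629 with ADU-S100, 482 to 3328 with olaparib and 1511 to 1653 with both, with a median of -1.29 and 0 of the 3 above 0 (-0.74 with 1 above 0 after scaling). Lymphoid tissue markers had a median of -1.52 with 1 of the 3 that passed the filter above 0 (-0.96 with 1 after scaling), and endothelium markers of -0.63 with 1 of the 5 above 0 (-0.08 with 1 after scaling). The summed lymphoid tissue and endothelium markers overlapped between all 4 groups. The neutrophil sums and the fibroblast and matrix sums of the combination lay under those of every ADU-S100 tumor. For the class II genes, the part of these cell types in the interaction was not tested. None of these marker sums was 0 in any tumor.

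In limma, genes passed the adjusted threshold when olaparib tumor 1521 was left out, and with no other single tumor left out. The olaparib group then held only tumors 1510 and 1517. Tumor 1517 had the highest factor of all tumors, 10.5, the fewest recovered counts, 106206, and 333 genes with at most 20 counts. Its part in these calls was not tested. Without tumor 1521, 197 genes lay below (28.6%) and 32 above (4.64%) at an unadjusted p under 0.05, and after scaling 122 (17.7%) and 80 (11.6%). Of these, 77 genes lay below additivity (11.2%) and 9 above (1.31%) at an adjusted p under 0.05 in limma, and after scaling 58 (8.42%) and 25 (3.63%), with 57 genes past the threshold in both fits. The 9 above were Lbp, Psmb7, H2-DMb2, Tcf7, H2-Aa, St6gal1, Tgfb2, Ctss and Litaf, and 49 of all 86 genes past the threshold had under 100 counts. The class II median was 1.15 without this tumor against 1.54 with it, and at an unadjusted p 4 class II genes were above and 1, H2-Ob at -1.71, was below. H2-Aa had an interaction of 2.77, Cd74 of 2.18, H2-DMa of 1.55 and H2-Ab1 of 1.15, and the last 3 did not pass the adjusted threshold as deposited. No reason to leave the tumor out is given in the labels.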

How the data were processed

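Normalized counts of 750 genes in 12 tumors, 3 per group, were analysed, with each tumor grouped by its label. The deposited values are a signal that the authors made from nCounter probe counts with nSolver 4.0 by quality control, background correction and scaling to positive controls and to housekeeping genes. The counts behind this signal were recovered with a step of 1 count per tumor read from the gaps between sorted values. At least 99.87% of values per tumor were whole within 0.01 of a count or at a floor of 1, which was set to 0 counts. In 5 tumors the lowest value was itself the step. In the other 7 it was the floor or more than 1 count, and there an automated check that reads the step from the lowest value did not accept the recovery. The recovered counts gave the depth (106206 to 1519471 per tumor), the mean count by which genes were described as low or high, the background level, the log2 factor, and the input of edgeR and DESeq2. The limma fits as deposited and after scaling did not use them, while some of the settings tried instead did. Counting error is only part of the spread between tumors.

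On log2(normalized count + 1), one mean per group was fitted with limma 3.58.1 (R 4.3.3; lmFit, contrasts.fit, eBayes) to the 689 genes with at least 20 in at least 3 tumors, over which p-values were adjusted by Benjamini-Hochberg. A fold change on this scale understates that of low genes. The fit was repeated after each tumor was divided by its median over the genes kept and multiplied by the geometric mean of these medians. Errors are standard errors. The genes and the 32 gene lists, written from nomenclature, were chosen with earlier results of these data known. Genes were named as the 8 with the smallest p in each direction and fit, all class II genes, the smallest p of each other list and the 5 genes the study names. Other genes were named after their values were seen. Of the symbols, 736 were current in RefSeq, 8 older and 6 not matched. Promoters were searched on both strands for the Y box CTGATTGG, the ISRE core GAAANNGAA, the GAS TTCNNNGAA and the NF-kB site GGANTTTCC, of which the Y box is reported.

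Settings tried instead were a pseudocount of 10, a filter at 50 or none, an intensity trend, no moderation, Benjamini-Yekutieli adjustment, the number series as a block, the log2 factor as a covariate, the linear scale, quantile, upper quartile and other median scaling, background subtraction, edgeR 4.0.16 and DESeq2 1.42.0 on recovered counts, and each tumor left out in turn, with the filter applied again. Added after seeing the data were scaling to one sum without the 10 highest genes, genes with a mean of at least 100 counts, and leaving out tumors 1517 and 1521 together. The limma, edgeR and DESeq2 fits of the interaction were run on simulated data with changes set in the combination. The data simulated for limma left out the differences in factor between tumors. They therefore cannot show how that fit treats genes with few counts here. Figures were drawn with matplotlib 3.10.9.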

Additional observations from a re-analysis of the deposited data

Results flagged for a closer look

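For some of the genes named, ADU-S100 moved expression one way without olaparib and the opposite way with it, with no overlap between the tumors compared. This held for 2 of all 689 genes upward with olaparib (0.29%) and 5 downward (0.726%) as deposited, and for 6 (0.871%) and 12 (1.74%) after scaling. The difference was not tested by this pattern itself, and no gene passed the adjusted threshold in limma with all tumors.

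As deposited, H2-DMb2 was such a gene upward, with an interaction of 2.49, and C9 (-3.94), Gpr44 (-2.98) and Lif (-2.17) downward. C9 and Gpr44 had means of 9.25 and 13.8 recovered counts, and C9 was at or near the background of 3 to 7 counts in the vehicle and combination tumors, whereas H2-DMb2 and Lif had means of over 100. C9 met the filter only through single-drug tumors, which favours the downward pattern. After scaling to one median the class II genes H2-DMb2 (3.03), H2-Aa (3.34), Cd74 (3.06), H2-DMa (2.29) and H2-Ab1 (2.09) had this pattern upward. Downward after scaling were C9 (-3.45), H2-Q1 (-3.05), Gpr44 (-2.46), Il11 (-2.80), Il19 (-2.69), Il22ra1 (-3.29), Igf1r (-3.31) and Nfatc2 (-1.71), of which only Igf1r and Nfatc2 had a mean of at least 100 recovered counts.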

How the results depend on the processing

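Among the 53 genes named by rule, none at an unadjusted p under 0.05 changed the sign of its interaction under any alternative in which it was tested, while some, such as C9 and Il11 after background subtraction, left the fit. Size and p were less stable than sign. With the log2 factor as a covariate, 29 of the 37 such genes as deposited and 9 of 17 after scaling shrank by over 1.5 times, and 27 and 3 no longer had that p (Ctss went from 2.32 to 0.08 after scaling). The number series as a block shrank 2 and 1, and 25 and 5 lost that p, and quantile normalization shrank 15 and 10 lost it. As deposited (62 below, 13 above), the count of genes below was 38 with a filter at 50, 11 with the number series as a block, 32 on the linear scale, 38 after background subtraction, 111 with edgeR and the authors' factors, 22 among genes with a mean of at least 100 counts, and 5 with the log2 factor as a covariate. The count above was 64 with that covariate, under which the median over genes reversed to 0.40, 27 on the linear scale, 26 with one median, 49 after quantile normalization, 29 with edgeR and TMM, 52 with DESeq2 and 21 after background subtraction. At an adjusted p, DESeq2 passed 23 below and 6 above. Without tumors 1517 and 1521 together, which leaves 1 olaparib tumor assumed to vary like the others, 116 genes were below and 42 above, 13 and 6 at an adjusted p.

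After scaling (64 below, 26 above), the count below was 37 with a filter at 50, 30 with the number series block, 36 with the covariate and 14 among genes with at least 100 counts, and the count above was 13 with the block. Without both tumors, 75 were above, and 24 below and 15 above passed an adjusted p.

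Leaving out 1 tumor at a time, the genes below ranged from 35 to 197 as deposited and 38 to 122 after scaling, those above from 7 to 32 and 14 to 80, and those at an adjusted p from 0 to 77 below and 0 to 9 above as deposited, and 0 to 58 and 0 to 25 after scaling. The median ranged from -0.98 without tumor 1521 to -0.19 without tumor 1517. All the highest counts came without tumor 1521. The counts below fell by more than 1.5 times without 1269 (40), 1506 (35) or 1517 (35) as deposited and without 1512 (38), 1510 (40) or 1517 (39) after scaling. The counts above did so without 1529 (8), 1512 (7) or 1270 (7) as deposited and without 1536 (14), 1251 (14), 1270 (16) or 1539 (16) after scaling, and rose to 41 without 1529. The causes were not tested.

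Of the 11 class II genes, between 3 (without 1529, 1512, 1513 or 1270) and 6 were above in the fits that left out 1 tumor, 2 with the number series as a block and 6 with the factor covariate. The sign of H2-Eb1 turned to -0.23 without tumor 1521. No paired analysis was possible because each tumor number occurs once and no 2 groups share one. Counts near background limit the genes with under 20 counts.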
